A study of Homo sapiens with 6 samples.

Results

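The clustered protocadherins are 55 neighbouring rows of the expression table, of 23278 rows in all, whose gene symbols begin with PCDHA, PCDHB, PCDHGA, PCDHGB, PCDHGC or PCDHAC and which lie on chromosome 5. They comprise 15 alpha members, 18 beta members and 22 gamma members. Among these, PCDHAC1, PCDHAC2, PCDHGC3, PCDHGC4 and PCDHGC5 are the 5 C-type genes, which sit at the far ends of the alpha and gamma groups. In hg19 the alpha rows share the span chr5:140165875-140391929, the beta rows reach from chr5:140430978 to 140627801, and the gamma rows share the span chr5:140710251-140892548. All rows of the alpha group carry 1 common span, and so do all rows of the gamma group, so that 37 of the 55 rows have no coordinates of their own. The rule leaves out 2 pseudogene rows of the locus, PCDHGB8P at 0.544 and 0.507 FPKM in EV and BORIS cells and PCDHB19P at 0.0564 and 0.0229 FPKM.

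The values come from a clonal derivative of FT282, an immortalised secretory epithelial line whose labels give the human fallopian tube as its source. It was grown in DMEM:F12 medium with fetal bovine serum and stably carried either an empty vector (EV cells) or a vector expressing BORIS (BORIS cells), the protein of CTCFL and a germ-line paralog of the insulator protein CTCF. CTCF was mapped by chromatin immunoprecipitation and sequencing (ChIP-seq) in both kinds of cells, BORIS was mapped in BORIS cells, and RNA was sequenced in both. Each group held 1 library. Values below therefore carry no replicate error, no difference was tested here, and an effect of BORIS cannot be told apart from other differences between the 2 cultures.

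Clustered protocadherins are cadherin-family receptors of the cell surface that bind copies of themselves on neighbouring cells. They are best known in neurons, where each cell uses its own combination of them. In the alpha and gamma groups each variable exon has its own promoter and is spliced to constant exons shared by the whole group, while each beta gene is a single exon. Most of the promoters carry a short conserved element, and CTCF with cohesin binds there and brings a promoter near distant enhancers.

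A different form of the conserved element was searched for in each of the 3 groups. These forms are shown here because the CTCF peaks described below lie at the starts of the beta genes. The sequences are 40-base windows of RefSeq promoters on the plus strand of GRCh38.p14. Capitals mark the element searched for: GATGTCGCT for alpha, GGTGGCGCT for beta and GNCGCTGT for gamma, where N is any base.
PCDHA1, chr5:140786082-140786121: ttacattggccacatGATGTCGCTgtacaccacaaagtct
PCDHA4, chr5:140806975-140807014: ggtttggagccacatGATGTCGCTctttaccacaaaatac
PCDHB2, chr5:141094540-141094579: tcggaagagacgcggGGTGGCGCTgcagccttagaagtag
PCDHB13, chr5:141213861-141213900: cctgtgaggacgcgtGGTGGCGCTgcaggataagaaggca
PCDHB14, chr5:141223259-141223298: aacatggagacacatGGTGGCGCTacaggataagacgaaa
PCDHGA2, chr5:141338702-141338741: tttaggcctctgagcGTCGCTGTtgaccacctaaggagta
PCDHGB4, chr5:141387616-141387655: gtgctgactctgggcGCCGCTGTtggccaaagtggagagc
PCDHGB5, chr5:141397862-141397901: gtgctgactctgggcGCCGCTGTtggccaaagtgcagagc
PCDHGC3, chr5:141475879-141475918: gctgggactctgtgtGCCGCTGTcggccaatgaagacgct

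RefSeq promoter entries, each 300 bases long, matched 47 of the 55 members. PCDHA3, PCDHA13, PCDHB6, PCDHB11, PCDHB17, PCDHB18, PCDHGA12 and PCDHGC5 are named only. The alpha element was found in 9 of 13 alpha promoters and in 0.105% of all 35116 RefSeq promoters, with both strands searched. The 4 alpha promoters without it were PCDHA9, PCDHA11, PCDHAC1 and PCDHAC2. The beta element was found in 13 of 14 beta promoters, PCDHB1 being the one without it, and in 0.501% of all promoters. The gamma element was found in 17 of 20 gamma promoters, in 5 alpha promoters, in 1 beta promoter and in 4.35% of all promoters. The 3 gamma promoters without it were PCDHGA11, PCDHGB3 and PCDHGB7. Each of these elements contains CGCT, which on its own is in 70.0% of all promoters. In all members that held one, the element read in the direction of transcription. Counted from the RefSeq start, it lay at a median of -53 bases in alpha, -66 in beta and -60 in gamma promoters. The strings were matched exactly, so near matches were not counted. A match describes these letters in this window and is not a measured binding site.

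PCDHB1 and PCDHB13 show the beta promoters without and with an exact match to the element. They are printed as the 300-base RefSeq promoters of GRCh38.p14, plus strand, with the element of PCDHB13 in capitals.
PCDHB1, chr5:141051124-141051423: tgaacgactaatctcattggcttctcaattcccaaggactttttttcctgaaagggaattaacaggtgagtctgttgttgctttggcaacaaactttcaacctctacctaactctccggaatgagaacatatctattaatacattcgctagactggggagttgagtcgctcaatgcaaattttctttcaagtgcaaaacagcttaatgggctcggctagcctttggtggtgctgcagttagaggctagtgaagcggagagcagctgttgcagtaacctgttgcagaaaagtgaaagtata
PCDHB13, chr5:141213669-141213968: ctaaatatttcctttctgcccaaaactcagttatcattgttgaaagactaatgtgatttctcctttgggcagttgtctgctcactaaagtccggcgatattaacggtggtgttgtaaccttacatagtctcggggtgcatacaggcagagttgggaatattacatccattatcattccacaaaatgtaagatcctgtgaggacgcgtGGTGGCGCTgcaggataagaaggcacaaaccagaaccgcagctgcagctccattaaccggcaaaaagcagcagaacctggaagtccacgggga

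Some members resemble each other closely. The promoters of PCDHB8 and PCDHB13 were 93.8% identical over 259 aligned bases, those of PCDHGB6 and PCDHGB7 92.9% over 168 bases, and those of PCDHGB4 and PCDHGB5 86.5% over 289 bases. The C-type promoters had a median GC content of 62.3%, against 36.0% for the other alpha, 40.8% for beta and 43.7% for the other gamma promoters, and 58.7% for all RefSeq promoters. Where transcripts are as alike as their promoters, or share constant exons, reads could be divided between members in more than 1 way, so the value of a single member is uncertain.

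RNA from the clustered protocadherins was low and unevenly spread. The deposited FPKM values (fragments per kilobase of transcript, scaled to the mapped fragments of the library, and so a level per length) summed to 39.7 over the 55 members in EV cells and 35.9 in BORIS cells. Of the 55, 9 reached 1 FPKM in either library and 5 were listed at 0 in both. The gamma group held most of it, with 32.1 FPKM in EV cells and 30.7 in BORIS cells. The beta group had 5.48 and 3.09 FPKM and the alpha group 2.11 and 2.19 FPKM. The sequencing depth behind these values is unknown, and in a bulk library fewer cells with a transcript and less of it per cell cannot be told apart.

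**Figure D1:**
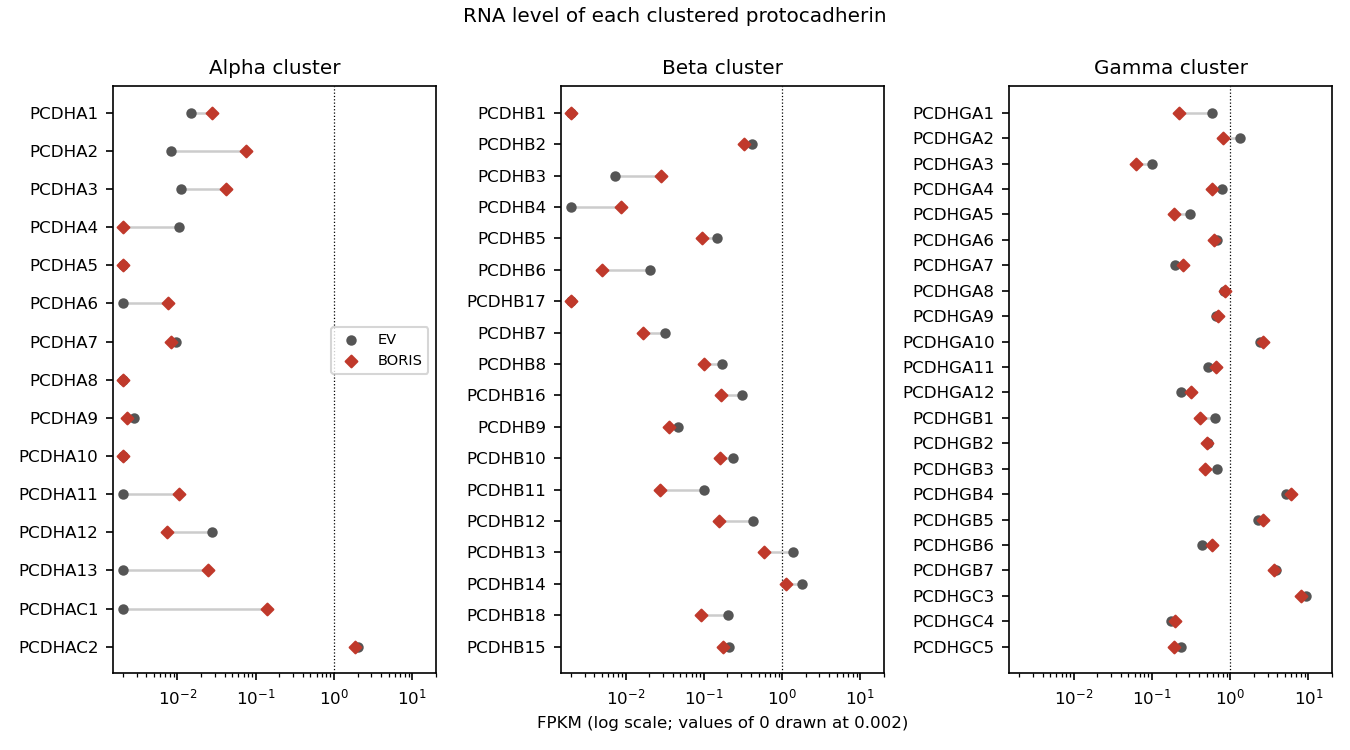
Level of each of the 55 members in FPKM on a log axis, in EV cells (grey circles) and BORIS cells (red diamonds), with the alpha, beta and gamma groups in separate panels and a dotted line at 1 FPKM; values of 0 are drawn at the left edge. The gamma members are the highest, PCDHAC2 is the only alpha member above 1 FPKM, and the red diamonds lie to the left for most beta members.

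No member reached the rule of size, a log2 ratio of at least 1 in either direction with a pseudocount of 1 FPKM and at least 1 FPKM in either library, where 1.45% of the 12496 rows with 1 FPKM were higher and 0.936% lower. Past a log2 ratio of 0.5, 1 member was lower, PCDHB13, and 0 were higher, against 2.33% lower and 3.23% higher among those rows. At these levels the pseudocount decides the call, since the log2 ratio of PCDHB13 was -0.58 with 1 FPKM, -1.11 with 0.1 FPKM, which is past the rule of size, and -1.24 with none. The median log2 ratio of the 9 members was -0.09, against -0.00 over all 12496 rows. Of the 9, 6 were lower and 3 higher in BORIS cells, while 50.1% of those rows were lower and 49.9% higher. The authors' deposited table gave a usable estimate for 19 of the 55 members and marked 0 as higher and 2 as lower, PCDHB13 and PCDHB14, while it marked 5.81% of all 13297 usable rows as higher and 6.64% as lower. For each of these genes the authors' deposited table gave a p-value of 5e-05 and a q-value of 0.000817. Among the other 17 usable members its q-values ran from 0.591 to 0.995. The remaining 36 members were not tested by the authors.

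The beta members, single-exon genes that are spliced to no constant exon, stood lower in BORIS cells nearly throughout. PCDHB14, the highest of them, was at 1.78 FPKM in EV against 1.11 FPKM in BORIS cells (log2 ratio -0.40). PCDHB13 was at 1.37 and 0.582 FPKM (log2 ratio -0.58). The next were PCDHB12 at 0.426 and 0.156 FPKM, PCDHB2 at 0.415 and 0.329 FPKM and PCDHB16 at 0.303 and 0.167 FPKM. All 11 beta members that reached 0.1 FPKM in a library were lower in BORIS cells, while 49.4% of the 15373 rows at that level were lower, and 48.0% of the 3921 rows whose higher value was between 0.1 and 2 FPKM. The smallest ratio of BORIS to EV among these 11 was 0.276, in PCDHB11, and the largest was 0.827, in PCDHB15. Under 0.1 FPKM, PCDHB6, PCDHB7 and PCDHB9 were also lower, PCDHB3 and PCDHB4 were higher, and PCDHB1 and PCDHB17 were listed at 0 in both libraries. The highest value of these 2 exceptions was 0.0286 FPKM, in PCDHB3. Summed, the beta group in BORIS cells stood at 0.565 of its level in EV cells. Without PCDHB13 and PCDHB14 the sum went from 2.32 to 1.40 FPKM, a ratio of 0.604. PCDHB17 and PCDHB18 carry pseudogene names in RefSeq.

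The gamma group was carried by a few members. PCDHGC3, a C-type gene and the highest of all 55, stood at 9.34 FPKM in EV against 8.09 FPKM in BORIS cells. PCDHGB4 was at 5.23 and 6.04 FPKM, PCDHGB7 at 3.90 and 3.62 FPKM, PCDHGA10 at 2.41 and 2.62 FPKM and PCDHGB5 at 2.25 and 2.65 FPKM. These 5 made up 72.1% of the summed gamma level in EV cells and 75.1% in BORIS cells. PCDHGA2 was at 1.35 FPKM in EV cells and fell short of 1 FPKM in BORIS cells, at 0.815 FPKM. The highest members below 1 FPKM in both libraries were PCDHGA8 at 0.842 and 0.854 FPKM, PCDHGA4 at 0.792 and 0.585 FPKM and PCDHGA9 at 0.661 and 0.706 FPKM. In all, 12 gamma members were lower and 10 higher in BORIS cells. The 7 gamma B members summed to 13.7 and 14.3 FPKM and the 12 gamma A members to 8.68 and 7.89 FPKM.

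Placed in chromosomal order by their RefSeq neighbours, the gamma members fell into runs. All 9 members from PCDHGA1 to PCDHGA6, the ones nearest the beta group, were lower in BORIS cells, with ratios of BORIS to EV from 0.375 in PCDHGA1 to 0.949 in PCDHGB2 and a median of 0.645. PCDHGA1 stood at 0.588 and 0.220 FPKM and PCDHGB1 at 0.638 and 0.411 FPKM. Of the next 10 members, from PCDHGA7 to PCDHGA12, 9 were higher, with a median ratio of 1.17 and a highest ratio of 1.33, in PCDHGA12. The exception was PCDHGB7, at a ratio of 0.928. Summed, the first run went from 5.65 to 3.88 FPKM and the second from 16.7 to 18.3 FPKM, where 49.4% of rows at 0.1 FPKM or more were lower and 50.6% higher. Past these, PCDHGC3 and PCDHGC5 were lower and PCDHGC4 was higher, at 0.175 and 0.199 FPKM. The split between PCDHGA6 and PCDHGA7 was placed after the values were seen. Neighbouring gamma members share constant exons and 1 span, so their estimates do not vary independently, and of the 15 usable ones in these runs 0 carried a mark in the authors' deposited table.

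**Figure D2:**
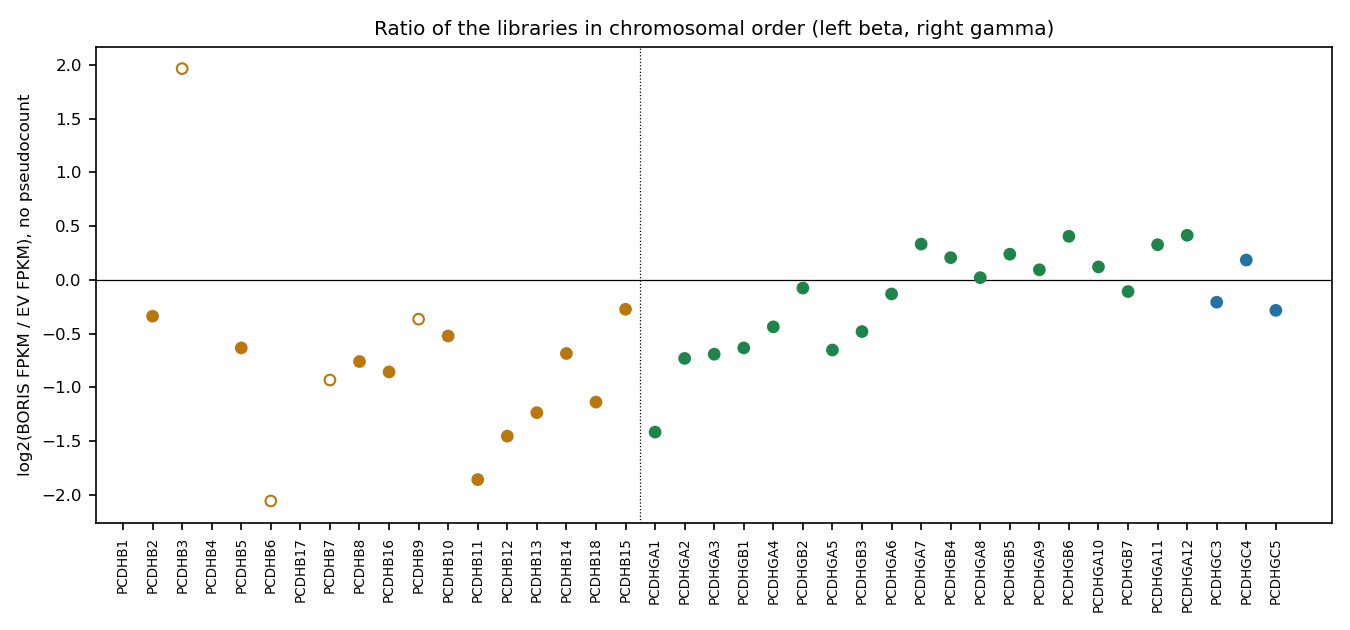
Log2 ratio of BORIS to EV FPKM without a pseudocount (vertical axis) for the beta (orange) and gamma (green, C type blue) members in chromosomal order, with open circles for members under 0.1 FPKM in both libraries and no point where a library is listed at 0. The beta members with at least 0.1 FPKM and the 9 members from PCDHGA1 to PCDHGA6 lie below 0, and 9 of the 10 members from PCDHGA7 to PCDHGA12 lie above it.

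The alpha group was close to silent apart from its last gene. PCDHAC2, a C-type gene, stood at 2.03 FPKM in EV against 1.84 FPKM in BORIS cells. PCDHAC1, the other C-type gene of the group, was listed at 0 in EV cells and at 0.140 FPKM in BORIS cells. None of the 13 other alpha members passed 0.0754 FPKM in either library, the value of PCDHA2 in BORIS cells, and their sums were 0.0849 and 0.205 FPKM. PCDHA5, PCDHA8 and PCDHA10 were listed at 0 in both. The 5 C-type genes together stood at 11.8 FPKM in EV against 10.5 FPKM in BORIS cells.

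CTCF occupied the locus densely, and its peaks were called at almost the same places in both kinds of cells. From the start of the alpha span to the end of the gamma span, 727 kb, the authors' lists held 58 CTCF peaks in EV cells and 58 in BORIS cells. That is 7.98 peaks per 100 kb in each, against 1.28 and 1.32 per 100 kb over chromosome 5. Both lists placed 18 peaks in the alpha span, 18 in the beta region, 17 in the gamma span, 2 between alpha and beta and 3 between beta and gamma. BORIS had 13 peaks there, 1.79 per 100 kb against 0.681 over chromosome 5. They divided as 4 in alpha, 4 in beta, 4 in gamma and 1 between beta and gamma. The CTCF peaks of the locus were of middling score, with a median at percentile 39.8 of the EV list and 43.9 of the BORIS-cell list. The score is the authors' own and was compared only within a list, and between lists only the ranks are set side by side.

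**Figure D3:**
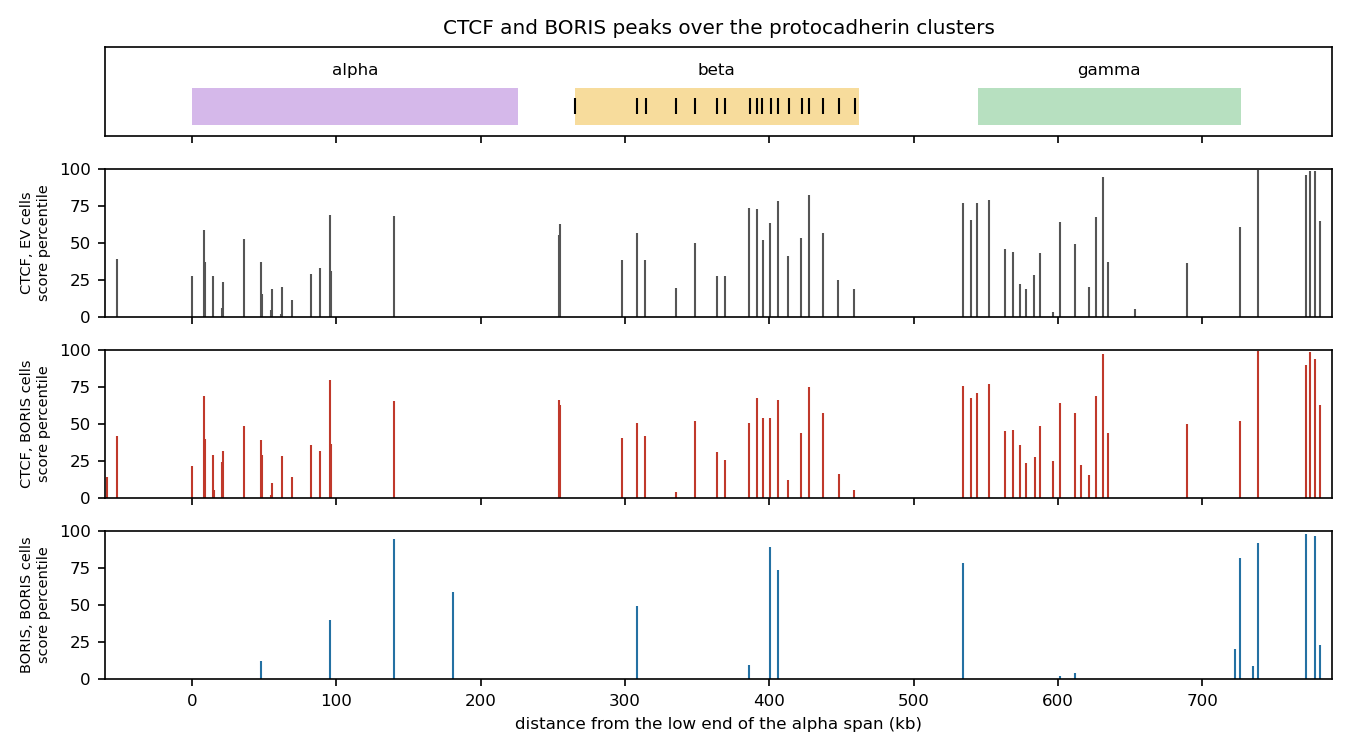
Peaks of CTCF in EV cells, of CTCF with BORIS expressed and of BORIS itself (top to bottom) over the locus, by distance in kb from the low end of the alpha span, with the height giving each peak's score percentile within its own list; boxes mark the alpha, beta and gamma regions and ticks the starts of the beta spans. Both CTCF rows show 58 peaks in the same arrangement from the alpha to the gamma box, and the BORIS row shows 13.

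Of the 58 CTCF peaks of EV cells, 56 overlapped a CTCF peak of BORIS cells, which is 96.6% (exact 95% interval 88.1 to 99.6%, counting error only). The same held for 94.2% of the whole EV list. In the other direction it was also 56 of 58, against 90.8% of the whole BORIS-cell list. The EV peaks without a partner were chr5:140227816-140227969 in alpha and chr5:140819072-140819248 in gamma, both in the lowest of 10 equal parts of the list by score. Those of BORIS cells were chr5:140181091-140181348 in alpha, in the lowest part, and chr5:140782140-140782415 in gamma, in part 3. All 18 beta peaks were called in both lists.

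The highest-scoring CTCF peak of the locus lay in the gamma span in both lists, at chr5:140796938-140797380 in EV cells and chr5:140796924-140797368 in BORIS cells, at percentiles 94.8 and 97.4. It held no BORIS peak. Next in EV cells came chr5:140593245-140593694, at the start of PCDHB13, at percentile 82.6, and chr5:140718110-140718521 in gamma, at 79.1. In BORIS cells the next were chr5:140261444-140261870 in alpha, at percentile 79.7, and chr5:140718096-140718556 in gamma, at 77.3. Peaks within the alpha and gamma spans are not assigned to single members here, since those rows share a span.

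BORIS peaks coincided with few of these CTCF peaks. In BORIS cells, 9 of the 58 CTCF peaks overlapped a BORIS peak, 15.5% (7.35 to 27.4%), against 35.0% (34.5 to 35.4%) of the whole list and 33.2% of chromosome 5. The CTCF peaks of EV cells gave the same count, 9 of 58, against 34.4% of their list. Of the 13 BORIS peaks, 9 overlapped a CTCF peak, 69.2% (38.6 to 90.9%), close to the 65.6% of the whole BORIS list. The highest-scoring BORIS peak, chr5:140305784-140306772 in alpha, was 989 bp long and stood at percentile 94.9. It was followed by chr5:140566497-140566828, at the start of PCDHB9, at 89.3, and chr5:140891939-140892250, at the end of the gamma span, at 81.9. All 3 coincided with a CTCF peak. The BORIS peaks without CTCF were chr5:140346110-140346813 in alpha and chr5:140767493-140767662, chr5:140777692-140777905 and chr5:140888576-140888931 in gamma.

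At the beta genes, whose rows carry spans of their own, CTCF lay at the gene starts. A CTCF peak position was within 1 kb of the start for 17 of the 18 members in each list, while 19.0% of 13755 gene starts in EV cells and 21.8% in BORIS cells had one. Counted from the start, the median position was -103 bp in EV cells and -90 bp in BORIS cells, and it was upstream in 15 of the 17. PCDHB16 was apart from the others, with its peak 911 bp and 891 bp past the low coordinate of its hg19 span. That coordinate need not be the RefSeq start, from which the PCDHB16 element lay at -66 bases. The distance therefore does not show that the peak lies away from the promoter. The member without a peak position within 1 kb was PCDHB1, whose nearest was at -10031 bp in EV cells and -10032 bp in BORIS cells. Of the 14 beta promoters searched, that of PCDHB1 alone lacked the exact element, and the gene was listed at 0 in both libraries. PCDHB17, whose promoter was not searched, was also at 0 in both. Its CTCF peak position was at -239 bp in EV cells and -221 bp in BORIS cells. At PCDHB13 the peak position was at -55 bp in EV cells and -49 bp in BORIS cells, and at PCDHB14 it was at -225 bp and -231 bp. Both genes kept a CTCF peak in BORIS cells, at percentiles 75.1 and 57.6 of that list, against 82.6 and 56.5 of the EV list. At the other beta starts with a peak, the percentile was higher in BORIS cells at PCDHB3, PCDHB5, PCDHB6 and PCDHB16 and lower at the rest. It fell furthest at PCDHB11, from 41.1 to 12.4, and at PCDHB7, from 73.7 to 50.9. Over the whole locus the median percentile was 39.8 in the EV list and 43.9 in the BORIS-cell list. These are ranks within lists of 43162 and 44625 peaks. How often the rank fell over all CTCF peaks was not counted. Starts are the low coordinates of the hg19 spans. The 14 beta members with a strand in RefSeq are all on the plus strand, and the GRCh38.p14 sequences were not joined to the hg19 peaks by position.

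**Figure D4:**
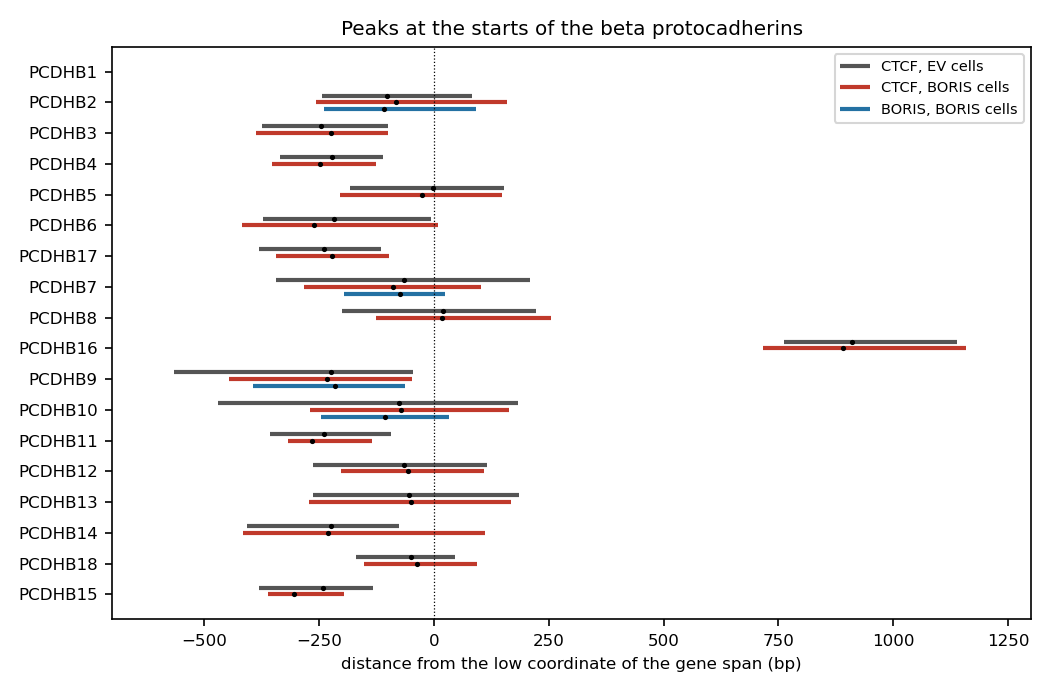
Extent of the peak nearest each beta start (bars) and the authors' position inside it (dots) in bp from the low coordinate of the gene span, for CTCF in EV cells (grey), CTCF in BORIS cells (red) and BORIS (blue). Apart from PCDHB16, whose low coordinate need not be its RefSeq start, the CTCF positions lie close to the low coordinate. None is further upstream than -304 bp, and PCDHB1 has no peak within 1 kb. BORIS peaks are seen at PCDHB2, PCDHB7, PCDHB9 and PCDHB10.

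BORIS peaks were at 4 of the 18 beta starts, PCDHB2, PCDHB7, PCDHB9 and PCDHB10, at positions from -215 to -73 bp, while 38.0% of gene starts had one. All 4 coincided with CTCF. These members were all lower in BORIS cells, with sums of 0.727 and 0.544 FPKM, a ratio of 0.748. Of the 14 beta members without a BORIS peak 10 were lower, with sums of 4.75 and 2.55 FPKM, a ratio of 0.537. PCDHB1 and PCDHB17 of the 14 were at 0 in both libraries, and PCDHB3 and PCDHB4 were higher, at no more than 0.0286 FPKM. Among all rows at 0.1 FPKM or more, 49.4% were lower. The ratio of the 14 rests mostly on PCDHB13 and PCDHB14, the members marked as lower, at 1.37 and 1.78 FPKM in EV cells. The nearest BORIS peak to each was the one at PCDHB10, at -21664 bp from the start of PCDHB13 and -31233 bp from that of PCDHB14.

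The alpha span had a feature that the other groups lacked, CTCF peaks in close pairs. Of its 17 gaps between neighbouring peaks, 6 were under 1 kb in each list, against 2.34% and 2.33% of gaps in the whole lists, and 0 were in the beta or gamma groups. The gap ran from 629 to 743 bp in EV cells and from 619 to 662 bp in BORIS cells. The pairs were not all the same in the lists. In EV cells 1 pair held chr5:140227816-140227969, and in BORIS cells 1 held chr5:140181091-140181348. Each of these peaks was called in 1 CTCF list alone, in the lowest of 10 parts by score. The first peak of the pair by coordinate scored higher in 3 of 6 pairs in EV cells and in 4 of 6 in BORIS cells. In textbook accounts most alpha variable exons hold a CTCF site in the promoter and another within the exon. Just before the alpha span, and not counted among the 58, was a further CTCF peak, 168 bp from its start in EV cells and 195 bp in BORIS cells. Between the alpha and beta groups lay a pair at chr5:140419681-140420205 and chr5:140420728-140421213 in EV cells, 28.0 and 29.0 kb past the alpha span, with no BORIS peak.

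From 11.9 to 54.7 kb past the gamma end, inside the span of DIAPH1, a formin gene at 29.2 and 25.7 FPKM, each CTCF list held 5 peaks. In EV cells 4 of the 5 stood at percentiles 95.7 to 99.4 of their list and the other at 65.0, where the highest CTCF peak of the locus was at 94.8. In BORIS cells the 5 stood at percentiles 99.5, 89.5, 98.6, 93.9 and 62.7, where the highest of the locus was at 97.4, so that 2 of the 5 were above it. BORIS peaks overlapped 4 of the 5, of which 3 stood at percentiles 91.7, 98.0 and 96.5 of the BORIS list. In the locus only 9 of 58 carried BORIS.

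Among genes that act with the clustered protocadherins, few were past a log2 ratio of 0.5, as among all 12496 rows with 1 FPKM, of which 94.4% lay within it. CTCFL was at 0.00532 FPKM in EV against 53.3 FPKM in BORIS cells, in the direction of the labels, and CTCF at 21.1 and 20.8 FPKM. Of 16 CTCF and cohesin genes, all with 1 FPKM in a library, CTCFL alone was past a log2 ratio of 0.5. By direction, 9 of the 16 were lower in BORIS cells and 7 higher. Marked as higher in the authors' deposited table were 2 of them, the cohesin subunit STAG1 and the cohesin acetyltransferase ESCO1. Over all usable rows that table marked 5.81% as higher and 6.64% as lower. CTCFL itself had a usable estimate there but carried no mark, so the absence of a mark does not show a small difference. Of 13 genes of DNA methylation and silencing 0 were past 0.5 and 12 were lower, beside 50.1% of all rows with 1 FPKM, and the authors' deposited table marked TET1 and TET3, which oxidise methylated cytosine, as lower. Of 22 genes of the signalling partners with 1 FPKM 0 were past 0.5, and the same table marked 1 of them as lower, CYFIP2, at 4.80 and 3.83 FPKM. WASF3, below 1 FPKM in both libraries, was marked as lower too. Among 28 neighbouring genes of the locus with 1 FPKM, the vault RNAs VTRNA1-1 at 75.0 and 125 FPKM and VTRNA1-2 at 67.9 and 40.1 FPKM were past 0.5, in opposite directions and unmarked. These are small RNA genes, whose FPKM can be high from few reads.

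Of 23 protocadherins outside the locus and FAT cadherins, 5 reached 1 FPKM. PCDH10 was at 0.396 and 1.59 FPKM and FAT1 at 95.6 and 74.1 FPKM, the former marked as higher and the latter as lower in the authors' deposited table. Of 7 classical cadherins with 1 FPKM, CDH24 was at 3.23 and 5.51 FPKM and CDH8 at 1.11 and 0.440 FPKM, again marked as higher and as lower in the authors' deposited table. Over each whole list, low members included, the authors' deposited table marked 1 gene as higher and 3 as lower, adding FAT2 and PCDH19 in the first list and CDH1 and CDH4 in the second, against 5.81% and 6.64% of all usable rows.

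The cells carried secretory epithelial markers in both libraries. PAX8 was at 71.3 and 72.5 FPKM and KRT7 at 1055 and 885 FPKM, and 8 of 14 secretory markers reached 1 FPKM in EV cells and 5 in BORIS cells. Of these 8, 7 were lower in BORIS cells and PAX8 was higher, with a median log2 ratio of -0.25. Among all rows with 1 FPKM, 50.1% were lower. KRT8 and KRT18, among the 7, had no usable estimate in the authors' deposited table. WFDC2 was at 1.28 and 0.661 FPKM, and MUC1 at 1.45 and 0.850 FPKM and MUC16 at 1.04 and 0.627 FPKM were marked as lower in the authors' deposited table. EPCAM was at 0.732 and 0.574 FPKM, and OVGP1, ESR1 and FOLR1 stayed below 0.121 FPKM. Of 10 fibroblast markers 5 reached 1 FPKM in EV cells and 4 in BORIS cells. Among them were COL1A1, at 64.8 and 46.5 FPKM, THY1, at 512 and 436 FPKM, and VIM, at 1366 and 1500 FPKM. Of the 5, 4 were lower in BORIS cells and 1, VIM, was higher. COL1A1 and PDGFRB, the latter at 1.38 and 0.763 FPKM, were marked as lower in the authors' deposited table. COL3A1, FAP, LUM, DCN and PDGFRA stayed below 0.208 FPKM. Of the 14 neuronal markers 5 reached 1 FPKM in each library, and their sum over the list was 101 FPKM in EV cells and 108 in BORIS cells. TUBB3 supplied most of it at 80.9 and 81.8 FPKM. SYP was at 0.186 and 0.141 FPKM and RBFOX3 at 0.0612 and 0.0406 FPKM. MAP2 at 2.57 and 5.68 FPKM and NEFL at 11.6 and 14.4 FPKM were marked as higher in the authors' deposited table, and SNAP25 at 1.78 and 1.11 FPKM as lower. Whether any of these marker differences has a part in the beta values was not tested. Ciliated, leukocyte and endothelial lists had 2 members each at 1 FPKM in each library. In the ciliated list TUBB4B stood at 445 FPKM in EV cells against 396 FPKM in BORIS cells, while FOXJ1 was listed at 0. The endothelial list held CDH5, with 35.2 FPKM in EV cells against 30.2 FPKM in BORIS cells. In the leukocyte list CD3E was listed at 0. CD68 of that list went from 1.48 to 2.26 FPKM and was marked as higher in the authors' deposited table. Beside the marks given for these lists, that table marked 5.81% of all usable rows as higher and 6.64% as lower.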

How the data were processed

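RNA levels came from the authors' deposited table of FPKM values with their p-values and q-values, and peaks from the authors' deposited lists, whose score has no stated unit. The build was hg19 and the tools were TopHat2, Bowtie and Cufflinks 2.0.0, per the submitters' processing notes, which assign no roles. The labels' protocols name 2 RNA library kits but not which library had which, so the kit cannot be told apart from the comparison. Not given in the sources used here are the peak caller, its threshold, the use of the input and any pooling of cultures. The input was not used here.

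Depth is not given, and a check for whole-read steps in the low FPKM values could not recover it. Of 31 nonzero beta values 6 were whole multiples within 0.05, but the check set both libraries on 1 scale, so it cannot decide the question. Ratios are log2((BORIS + 1)/(EV + 1)) unless given as plain ratios. Peaks overlapped by at least 1 bp, close pairs were peak positions under 1 kb apart, and intervals are exact (Clopper-Pearson) 95% intervals for counting error only. The scripts were tested on simulated data. Motifs were searched on both strands of RefSeq promoters.

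Named were all members with 1 FPKM in a library and the highest 3 of the rest, members of the cohesin and neighbour lists past 0.5, the extreme ratios of the other lists where a result turned on them, the 3 highest-scoring peaks of each list, peaks at member starts and CTCF peaks called in 1 list. Of marker lists, counts and defining genes are given, and other genes named were chosen after their values were seen. The members and lists were chosen with earlier results of these data known. All 55 members were found in the RefSeq gene table, which was used for order, while strand came from the RefSeq promoter entries. Python 3.11.15, pandas 2.3.3, numpy 2.4.6, scipy 1.17.1, Biopython 1.88 and matplotlib 3.10.9 were used.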

Additional observations from a re-analysis of the deposited data

How the results depend on the processing

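Of the 59 recomputed counts, shares and medians that answer a comparison, 48 stayed within the tolerance (1.5 times for a count, 0.1 for a median log2 ratio), none changed direction, and 11 moved. The members' median log2 ratio of -0.09 stayed within that tolerance but ranged from -0.13 to -0.0052, with -0.015 without a minimum and -0.0052 with a minimum of 5 FPKM. The count of members lower by the rule of size went from 0 to 1, PCDHB13, with a pseudocount of 0.1 FPKM and to 1 with a log2 ratio of 0.5. With the lower-scoring 50% of each list left out, the CTCF peaks of the locus went from 58 to 23 (EV cells) and 24 (BORIS cells), and the BORIS peaks from 13 to 6. With CTCF lists shortened to the length of the BORIS list there were 26 in each. In the higher-scoring part, 9 beta members in place of 17 had a CTCF peak at the start (EV cells; 9 in BORIS cells also), and the close pairs of the alpha span went from 6 to 0 in both lists. All of these lists hold fewer peaks by construction. Pseudocounts of 0.1 and 0.5 FPKM gave PCDHB13 a log2 ratio of -1.11 and -0.79, PCDHB14 -0.64 and -0.50, and PCDHGA2 -0.67 and -0.49. Scaling the BORIS library so that the median log2 ratio of all genes with 1 FPKM in both libraries went from -0.0015 to 0 moved no result and left the runs of gamma members at 9 and 9. With usable estimates alone, 7 of 7 members were lower in the first run and 7 of 8 higher in the second. The count of beta members lower in BORIS cells, the counts at beta starts, the close pairs and the gamma runs were added after seeing the data. No paired analysis was possible because each group held 1 library, and none could be left out.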
